A study of Mus musculus with 6 samples.

Results

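Complement and coagulation genes encode plasma proteins that the liver makes in large amounts, and their transcripts were examined in mouse liver tumors with and without the mitochondrial topoisomerase gene Top1mt. The genes were chosen by symbol from a list of 42 genes, 20 of complement and 22 of coagulation. Of these, 41 were found among the 30236 entries of the table, and all 41 lay above the filter on low values. Klkb1 was not analysed here. RNA was sequenced from 3 tumors of WT mice and 3 of Top1mt -/- mice (Top1mt-KO, or KO), all male and of the C57BL/6 strain, and the comparison asks how tumors that formed without Top1mt differ from those that formed with it. Mice of both genotypes were injected with diethylnitrosamine, a liver carcinogen, on day 14 after birth. From week 8 they were given carbon tetrachloride, which injures the liver, for 14 weeks, and liver tumor tissue was taken at 22 weeks. The knockout is of the whole animal and not of the tumor alone, so other cells of the liver carry it as well. Each library is taken as the tumor of a separate mouse, which the labels do not state.

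The values are the authors' log2 expression values per gene, normalized between libraries and not divided by transcript length. The transform is not named and may be a regularized log, which pulls the values of weakly expressed genes together. The table holds no counts, and the depth of each library is unknown. Throughout, values are listed in the order of replicates 1, 2 and 3, and a log2 fold change is KO minus WT with its standard error (SE) from limma.

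Complement is a cascade of proteases and binding proteins that is started by antibodies, by lectins bound to foreign sugars, or by spontaneous turnover of C3. All routes meet at the cleavage of C3 and end in a pore built from C5, C6, C7, C8 and C9. Coagulation is a parallel cascade in which thrombin, cut from prothrombin, turns fibrinogen into fibrin, while anticoagulant proteins limit it and plasmin dissolves the clot. Hepatocytes make most of these proteins, and many of them belong to the acute phase response to injury.

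Top1mt was 7.71, 5.99 and 8.01 in WT tumors and 5.58, 6.41 and 6.32 in KO tumors. The library labelled WT replicate 2 lay below the libraries labelled KO replicates 2 and 3, so the groups overlapped and this library went against its label (p = 0.3 by a two-sided exact permutation test, whose smallest p with 3 libraries per group is 0.1). The log2 fold change of Top1mt was -1.13 (SE 0.52), and -1.76 without that library. Which part of the gene the knockout removes is not given in the sources used here, so reads from a remaining part may be counted. The library labelled KO replicate 1 stood apart in another way. Gm42418 was 12.36, 12.68 and 15.80 in WT tumors and 22.00, 11.71 and 11.66 in KO tumors, Lars2 was 9.05, 8.55 and 12.67 in WT tumors and 20.06, 8.44 and 8.52 in KO tumors, and Gm15564 was 4.83, 4.75 and 8.85 in WT tumors and 16.84, 3.93 and 4.43 in KO tumors. All these transcripts were highest in KO replicate 1 and next highest in WT replicate 3. The main counts are therefore also given without WT replicate 2 and KO replicate 1.

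None of the 41 complement and coagulation genes passed the test between genotypes. With limma, 0 of 41 genes had an adjusted p under 0.05, beside 0% of the 22677 genes tested. An unadjusted p under 0.05 was found in 0 of 41, beside 4.34% of all genes tested, and the smallest p of the 41, that of F7, was 0.125 by limma. Groups that do not overlap numbered 0 of 41, beside 8.28% of all genes tested. The nearest was F7, where the lowest KO value (10.05) and the highest WT value (10.06) differed by less than the rounding used here. Here and below, F7, C2, Mbl1, Cfb, C8a, F9, F10, Proc, Pros1 and Serpind1 were singled out after their values were seen. In a bulk tumor, fewer cells of a type and less RNA per cell cannot be told apart, and this holds for each difference below. Without WT replicate 2 and KO replicate 1, again 0 of 41 genes had an adjusted p under 0.05 by limma (0% of all genes tested) and 0 of 41 an unadjusted p under 0.05 (5.96% of all genes tested). With the 2 libraries per genotype that remain, 7 of 41 did not overlap, beside 33.6% of all genes tested. These were C8g, C4bp, F10, F5, F12, F13b and Cpb2.

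The differences were small in most of these genes. The median log2 fold change was -0.013 over the 20 complement genes and 0.10 over the 21 coagulation genes, beside -0.015 over all genes tested, but with libraries centred on hepatocyte markers, quantile normalization and libraries centred on their medians it was -0.092, -0.040 and 0.041 for complement and 0.022, 0.041 and 0.16 for coagulation, beside -0.094, 0.0031 and 0.039 over all genes tested. Complement genes were divided evenly, with 10 above and 10 below 0, and of the coagulation genes 16 were above and 5 below. Together 26 of 41 were above 0, but this count was 21 with libraries centred on hepatocyte markers, 22 with quantile normalization and 31 with libraries centred on their medians. Of all genes tested 47.7% were above 0, and 36.5%, 50.8% and 56.8% in those settings. For 31 of the 41 genes the 95% confidence interval from limma lay within a 2-fold change in either direction, as it did for 49.7% of all genes tested. For the other 10 genes, among them C3 and the fibrinogen chains, a change of 2-fold in at least one direction lies inside the interval. The trend of the fit widened the error of the most abundant of the 41 genes, but not of all abundant ones. For Hrg the SE was 0.27 with the trend and 0.29 without it. For C3 the SE was 0.59 with the trend and 0.37 without it.

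**Figure D1:**
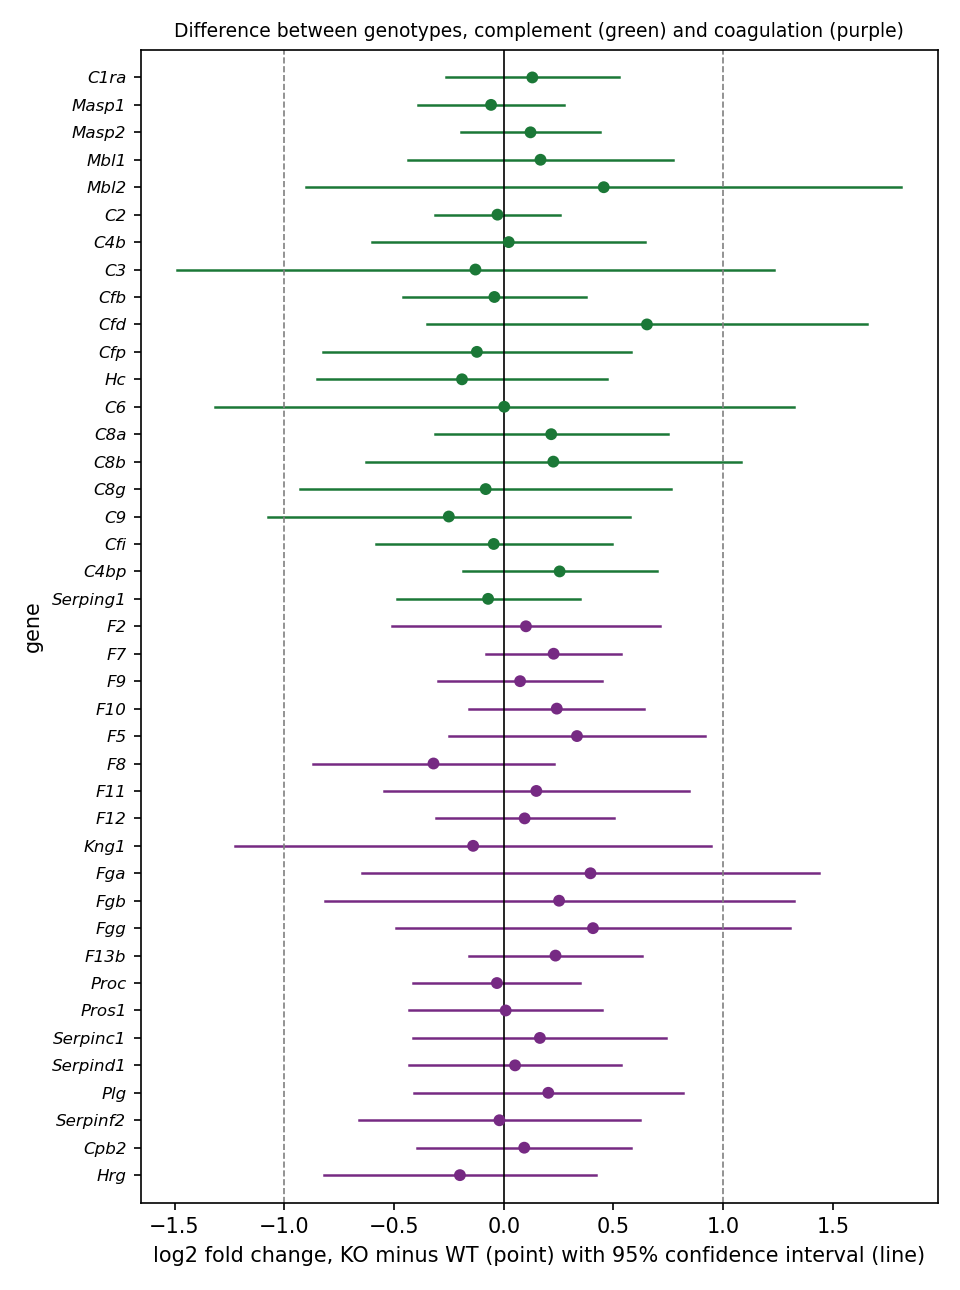
Each point is the log2 fold change (KO minus WT, 3 libraries each) of a complement gene (green) or coagulation gene (purple), and each line its 95% confidence interval from limma, with dashed lines at a 2-fold change. The points run from -0.32 (F8) to 0.65 (Cfd), and all 41 intervals include 0.

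To order the genes by level, values were divided by the length of the longest coding transcript, so levels in this paragraph are log2 values per kilobase over all 6 libraries. The top of the order was held by Fga at 14.94, Fgg at 14.83, Kng1 at 14.72, C3 at 14.65 and Fgb at 14.42. The SD of a single gene over the 6 libraries was 0.38 to 0.50 among these. Fga lay above Fgg in every library, while the other neighbours among them changed order between libraries. Prothrombin (F2) followed at 13.75 and plasminogen (Plg) at 13.22. At the other end were C2 at 7.56, Cfb at 7.06, F8 at 6.77 and, far below all others, Cfd at 1.47. The genes thus spanned a wide range of levels, with the fibrinogen chains, kininogen and C3 at the head.

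Among the genes that start the lectin and classical pathways, the mannose-binding lectin gene Mbl2 varied most. Mbl2 was 10.77, 8.83 and 10.01 in WT tumors and 9.24, 10.54 and 11.21 in KO tumors. It was low in WT replicate 2 and KO replicate 1 and high in WT replicate 1 and KO replicate 3, so both groups held high and low libraries. Its range of 2.38 on the log2 scale, or 5.19-fold, was the widest of the 41 genes. Its log2 fold change, 0.46 (SE 0.59), turned to -0.065 without WT replicate 2. The related lectin gene Mbl1 was 10.37, 9.82 and 10.76 in WT tumors and 10.15, 10.80 and 10.50 in KO tumors. It too was lowest in WT replicate 2 and next lowest in KO replicate 1, over a narrower range of 0.99 (log2 fold change 0.17, SE 0.26, and -0.081 without WT replicate 2). Masp1 and Masp2, the proteases that travel with these lectins, ranged over 0.39 and 0.36. C2, whose product forms the C3-cleaving enzyme with that of C4b, had the narrowest range of the 41 genes. C2 ran from 8.91 to 9.01 over the 6 libraries, with all KO libraries between the lowest and the highest WT library. C4b ranged over 0.51 and C1ra, a protease of the first component, over 0.53. Both have a near-identical copy in the mouse genome, C4a and C1rb, with which reads may be shared, so their values are uncertain.

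C3, on which all routes converge, was 17.44, 16.61 and 17.16 in WT tumors and 17.09, 17.44 and 16.30 in KO tumors. It was highest in KO replicate 2 and WT replicate 1 and lowest in KO replicate 3, and the groups overlapped throughout (log2 fold change -0.13, SE 0.59). This difference was 0.19 with KO replicate 3 left out, 0.056 with WT replicate 1 left out and -0.43 with WT replicate 2 and KO replicate 1 left out, so its direction rests on single libraries. Cfb, whose product cleaves C3 in the alternative pathway, had the same libraries at the top and the same library at the bottom as C3. Cfb was 8.77, 8.35 and 8.50 in WT tumors and 8.48, 8.74 and 8.27 in KO tumors. Its values spanned 0.50, and its log2 fold change of -0.042 (SE 0.18) was 0.012 with libraries centred on their medians, 0.073 without WT replicate 1 and 0.071 without KO replicate 3. Cfd, which encodes the protease that activates factor B and is made mainly in fat, was 0.85, 1.15 and 1.06 in WT tumors and 2.25, 0.92 and 1.86 in KO tumors. KO replicates 1 and 3 lay above all WT libraries and KO replicate 2 within them. Its log2 fold change of 0.65 (SE 0.43) was the largest of the 41 genes, at the lowest level of them. That difference was 0.37 without KO replicate 1 and 1.03 without KO replicate 2. In the latter case Cfd was 1 gene of the 41 with an unadjusted p under 0.05 by limma (0.0454), beside 4.50% of all genes tested. The defining fat cell markers were low too. Adipoq was 0.47, 0.79 and 0.68 in WT tumors and 0.75, 0.54 and 0.15 in KO tumors, and Plin1 and Lep were below 0 in all 6 libraries. Of 9 fat cell markers, Car3, which hepatocytes also express, was the most abundant, and the log2 of their summed level was 13.53, 12.76 and 13.07 in WT tumors and 12.19, 13.80 and 13.32 in KO tumors. This sum was mostly Car3, and the part of fat cells in the level of Cfd was not tested.

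Cfp encodes properdin, which steadies the alternative pathway enzyme and is made by myeloid cells rather than hepatocytes. Cfp was 8.43, 8.37 and 9.27 in WT tumors and 8.06, 8.73 and 8.92 in KO tumors. WT replicate 3 was highest and KO replicate 1 lowest, and the log2 fold change of -0.12 (SE 0.30) became 0.17 without WT replicate 3 and 0.13 without KO replicate 1. Myeloid markers were highest in the same library. The log2 of the summed level of 12 macrophage markers was 13.20, 12.79 and 13.88 in WT tumors and 12.76, 13.25 and 13.32 in KO tumors, with Cd5l the most abundant. For 10 neutrophil markers it was 8.76, 9.32 and 10.37 in WT tumors and 8.32, 8.65 and 9.08 in KO tumors, with S100a9 the most abundant. Both sums were highest in WT replicate 3 and lowest in KO replicate 1, as Cfp was. Their part in the level of Cfp was not tested.

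The terminal pathway genes encode the parts of the membrane pore. Hc, the mouse gene of C5, was 14.96, 14.53 and 14.43 in WT tumors and 14.52, 14.09 and 14.74 in KO tumors. KO replicate 2 was lowest and WT replicate 1 highest, with the other 4 libraries between them (log2 fold change -0.19, SE 0.29, and -0.0090 without KO replicate 2). C6, which joins C5b, was 10.94, 9.76 and 11.20 in WT tumors and 9.77, 10.22 and 11.90 in KO tumors. It was high in KO replicate 3 and low in WT replicate 2 and KO replicate 1, a range of 4.42-fold, and the group means were nearly equal (log2 fold change 0.0024, SE 0.57). That difference was -0.43 without WT replicate 2 and -0.63 without KO replicate 3. C9, which forms most of the pore, was 12.24, 10.80 and 11.63 in WT tumors and 10.92, 11.32 and 11.68 in KO tumors. It was again lowest in WT replicate 2 and KO replicate 1, and highest in WT replicate 1. The log2 fold change of C9, -0.25 (SE 0.36), was the most negative of the complement genes and was 0.090 without WT replicate 1.

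The C8 protein is built of 3 chains from separate genes, and these genes did not all share one order of libraries. C8a was 13.54, 13.21 and 13.80 in WT tumors and 13.63, 13.61 and 13.96 in KO tumors. C8b was 10.79, 10.26 and 10.73 in WT tumors and 10.23, 10.49 and 11.73 in KO tumors. C8g was 11.24, 11.95 and 11.29 in WT tumors and 12.24, 10.81 and 11.19 in KO tumors. C8b was highest in KO replicate 3 and lowest in KO replicate 1, while C8g was highest in KO replicate 1 and WT replicate 2 and lowest in KO replicate 2. C8a varied over 0.75 and was highest in KO replicate 3, as C8b was. It was lowest in WT replicate 2, where C8b was next lowest. C8a and C8b are neighbours on chromosome 4 in the RefSeq annotation with no coding gene between them. No C8 chain separated the genotypes, with log2 fold changes of 0.22 (SE 0.23), 0.23 (SE 0.37) and -0.082 (SE 0.37). That of C8a was 0.063 without WT replicate 2 and 0.36 without WT replicate 3. That of C8b was -0.23 without KO replicate 3, and that of C8g was 0.22 without KO replicate 2, 0.15 without WT replicate 2 and 0.028 without KO replicate 3.

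Inhibitors of complement varied less than the terminal genes. C4bp, which helps to break down C4b, was 13.50, 13.32 and 13.16 in WT tumors and 13.43, 13.66 and 13.65 in KO tumors. KO replicates 2 and 3 lay above all WT libraries, while KO replicate 1 lay below WT replicate 1 (log2 fold change 0.25, SE 0.19). With libraries centred on their medians the groups of C4bp and F7 did not overlap (2 of 41, beside 8.70% of all genes tested), while with libraries centred on hepatocyte markers those of both overlapped. Cfi, the protease that inactivates C3b, ranged over 0.52 and Serping1, the inhibitor of the first component, over 0.40. The median range of the inhibitors was 0.50, beside 1.43 for the terminal pathway and 1.03 over all genes tested.

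Among the procoagulant proteases that need vitamin K (F2, F7, F9 and F10), 4 of 4 genes had small positive differences, but 3 of 4 with libraries centred on hepatocyte markers, 3 of 4 without KO replicate 1 and 2 of 4 without WT replicate 3. Proc, an anticoagulant protease that also needs vitamin K, had a log2 fold change of -0.031 and is described with the anticoagulants. Prothrombin, F2, was 14.69, 14.92 and 14.45 in WT tumors and 14.88, 14.61 and 14.88 in KO tumors. WT replicates 2 and 3 bounded the 6 values, with all KO libraries between them (log2 fold change 0.10, SE 0.26, and -0.018 without WT replicate 3). F7, which starts coagulation together with tissue factor, was 10.06, 9.90 and 9.999 in WT tumors and 10.23, 10.05 and 10.35 in KO tumors. KO replicates 1 and 3 lay above all WT libraries and KO replicate 2 level with WT replicate 1 (log2 fold change 0.23, SE 0.13). F10, the neighbour of F7 on chromosome 8 with no coding gene between them, had a log2 fold change of 0.24 (SE 0.17, and 0.14 without WT replicate 3), and F9 0.075 (SE 0.16), which turned to -0.015 without WT replicate 3 and -0.014 without KO replicate 1.

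The cofactors F5 and F8 went in opposite directions, and neither passed the test. F5, the cofactor of factor Xa, was 13.69, 14.21 and 13.68 in WT tumors and 14.40, 13.92 and 14.25 in KO tumors. All 3 KO libraries lay above WT replicates 1 and 3, but WT replicate 2 was higher than KO replicate 2 (log2 fold change 0.33, SE 0.25, and 0.51 without WT replicate 2). F8, the gene lacking in haemophilia A, is expressed mainly by sinusoidal endothelial cells of the liver. F8 was 10.44, 10.29 and 9.94 in WT tumors and 10.14, 9.40 and 10.17 in KO tumors. KO replicate 2 was lowest, and WT replicates 1 and 2 were highest. The log2 fold change of -0.32 (SE 0.24) was the most negative of the 41 genes and was -0.068 without KO replicate 2. The log2 of the summed level of 11 endothelial markers, led by Stab2, was 13.77, 13.45 and 13.44 in WT tumors and 13.46, 13.52 and 13.79 in KO tumors. Of these markers 3 were lowest in KO replicate 2 as F8 was (Gpr182, Clec4g and Tek, at 7.95, 7.81 and 8.08), while the sum was not. Another 4 were lowest in WT replicate 3, 2 in WT replicate 2 and 2 in KO replicate 1. The part of these markers in the level of F8 was not tested. The log2 fold change was above 0 in 7 and below 0 in 4 of the 11 markers, with the lowest for Gpr182 (-0.40, and -0.64 to -0.17 with 1 library left out). In 2 of them, Cdh5 (0.40) and Pecam1 (0.16), the groups did not overlap, beside 8.28% of all genes tested.

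In the contact system, in which surface contact activates factor XII, the kininogen gene Kng1 varied most. Kng1 was 15.92, 16.49 and 15.48 in WT tumors and 16.21, 15.14 and 16.12 in KO tumors. It was highest in WT replicate 2 and KO replicate 1 and lowest in KO replicate 2 and WT replicate 3, so each genotype spanned most of the range (log2 fold change -0.14, SE 0.47). This turned to 0.21 with KO replicate 2 left out and to 0.12 with WT replicate 2 left out. Kng2, a near-identical neighbour with which reads may be shared, was also highest in KO replicate 1 and WT replicate 2, at 13.21 and 13.17, and lowest in KO replicate 2, at 12.45. F11 ranged over 1.26 with the highest value in KO replicate 1 and the next in WT replicate 2. F12 ranged over 0.41.

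The fibrinogen genes moved together over the libraries. Fga was 16.01, 16.30 and 16.03 in WT tumors and 16.59, 15.96 and 16.97 in KO tumors. Fgb was 16.10, 16.43 and 16.16 in WT tumors and 16.59, 15.90 and 16.96 in KO tumors. Fgg was 15.30, 15.67 and 15.30 in WT tumors and 15.89, 15.28 and 16.32 in KO tumors. All 3 chains were highest in KO replicate 3, then in KO replicate 1, then in WT replicate 2, and lowest in KO replicate 2, so the KO group held both ends of the range. WT replicates 1 and 3 differed by less than 0.1 in each chain. The ranges were 1.01, 1.06 and 1.04, or about 2-fold. The log2 fold changes were 0.40 (SE 0.45) for Fga, 0.25 (SE 0.46) for Fgb and 0.41 (SE 0.39) for Fgg, and with quantile normalization they were 0.14, -0.011 and 0.22. Without KO replicate 2 the groups of all 3 chains did not overlap, with log2 fold changes of 0.67, 0.54 and 0.68, none past an adjusted p of 0.05 by limma. That omission left 7 of 41 genes without overlap, beside 16.9% of all genes tested. Without KO replicate 3 they were 0.16, 0.014 and 0.16. F13b, the carrier chain of the enzyme that crosslinks fibrin, ranged over 0.62 and did not share this order, being highest in KO replicate 3 and next in KO replicate 2.

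**Figure D2:**
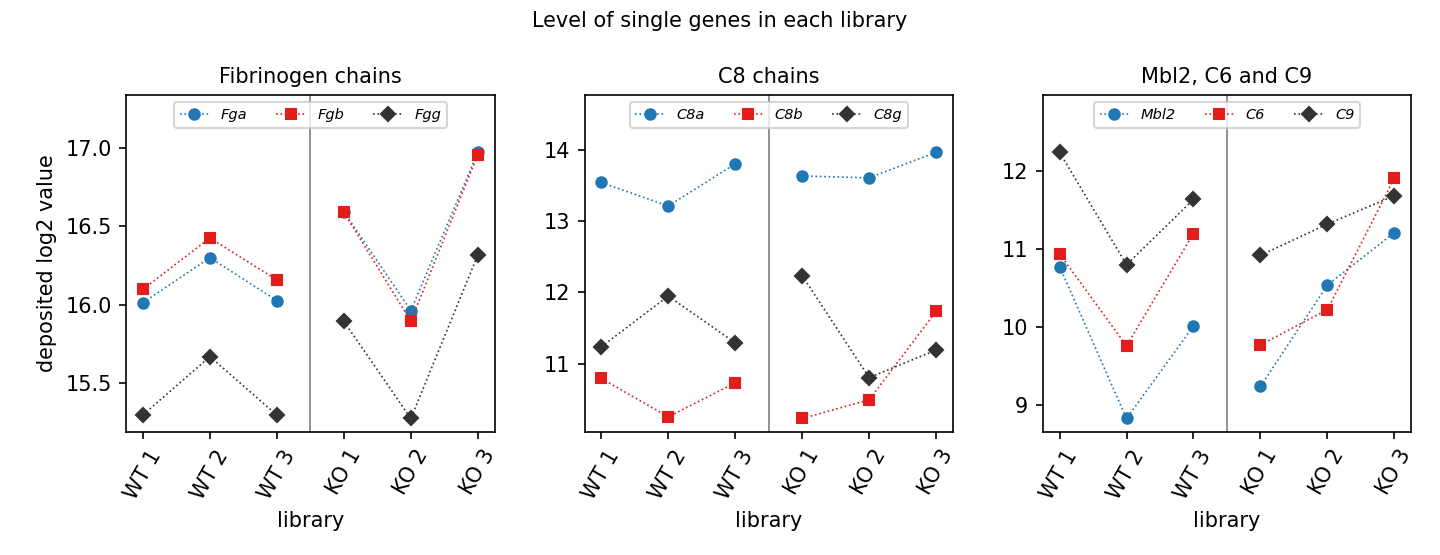
Deposited log2 values of single genes in each library, labelled by genotype and replicate, with a grey line between WT and KO and dotted lines only to guide the eye. The fibrinogen chains (left) keep nearly the same order of libraries, from KO replicate 2 up to KO replicate 3, the C8 chains (middle) do not, and Mbl2, C6 and C9 (right) are lowest in WT replicate 2 and KO replicate 1.

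The fibrinogen genes lie side by side on chromosome 3, in the order Fgg, Fga, Fgb with no coding gene between them. Because they moved together, the 150 bases before each gene's start are shown as RefSeq gives them on GRCm38.p6, 5′ to 3′ on the gene's strand, upstream of the first exon. Capitals mark matches to the motifs searched, which are GTTAAT (HNF1), TTGCNNAA (C/EBP), CTGGGAA (the acute phase element that answers IL-6), TTCNNNGAA (STAT), CAAAGTCCA (HNF4) and TATAAA (the TATA box), on both strands. The windows are chr3:83026003-83026152 on the plus strand for Fga, chr3:83049864-83050013 on the minus strand for Fgb and chr3:83007574-83007723 on the plus strand for Fgg.
Fga: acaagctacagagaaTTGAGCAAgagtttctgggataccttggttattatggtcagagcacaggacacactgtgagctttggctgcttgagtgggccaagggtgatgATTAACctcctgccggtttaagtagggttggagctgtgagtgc
Fgb: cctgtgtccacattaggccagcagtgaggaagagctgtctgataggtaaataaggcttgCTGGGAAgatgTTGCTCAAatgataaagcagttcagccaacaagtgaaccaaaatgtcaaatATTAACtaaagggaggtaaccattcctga
Fgg: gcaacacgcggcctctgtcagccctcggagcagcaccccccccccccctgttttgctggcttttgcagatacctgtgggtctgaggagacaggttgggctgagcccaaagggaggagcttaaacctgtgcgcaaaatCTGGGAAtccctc
Fga and Fgb each hold the C/EBP and the HNF1 letters in this window, and the IL-6 element is in Fgb and Fgg. No motif searched is in all 3 windows.

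RefSeq windows from 250 bases before to 50 after the start were found for 32 of the 41 genes, of which C8g has 2. Those of Cfi, Cfb, Masp1, Plg, C2, C4b, Proc, Serping1 and Kng1 were not analysed here. GTTAAT was in windows of 10 of these genes, 30.3% of their windows, beside 7.10% of all 32851 windows of that length. Among them were Fga, Fgb, Hc, F2, C8a, C8b and F13b. TTGCNNAA was in 10 genes (30.3% of windows beside 10.8% of all), among them C3, C9, Fga, Fgb, F9, F11 and Serpinc1. CTGGGAA was in 6 (18.2% beside 11.1%) and TTCNNNGAA in 7 (21.2% beside 8.30%), and these motifs overlap in F9 and Masp2. TATAAA was in 3 (9.09% beside 13.6%) and CAAAGTCCA in 0 (beside 0.475%). A match is a run of letters and not a binding site.

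Anticoagulant genes varied little. Serpinc1 encodes antithrombin, the main inhibitor of thrombin, and was 14.46, 14.26 and 14.16 in WT tumors and 14.19, 14.45 and 14.74 in KO tumors. KO replicate 3 was highest, and the other KO libraries lay among the WT libraries (log2 fold change 0.16, SE 0.25). It was 0.026 without KO replicate 3 and 0.30 without KO replicate 1. Proc (protein C), Pros1 (its cofactor protein S) and Serpind1 (heparin cofactor II) ranged over 0.33, 0.56 and 0.49, with log2 fold changes of -0.031, 0.0091 and 0.052. The sign of each turned with single libraries left out, Proc to 0.035 and Pros1 to -0.14 without WT replicate 2, and Serpind1 to -0.057 without WT replicate 3.

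Of the genes that dissolve fibrin or hold this back, plasminogen (Plg) was 14.75, 14.56 and 14.44 in WT tumors and 14.90, 14.48 and 14.97 in KO tumors. KO replicates 1 and 3 lay above all WT libraries and KO replicate 2 below WT replicates 1 and 2 (log2 fold change 0.20, SE 0.26). It was 0.11 without KO replicate 3 and 0.36 without KO replicate 2. Hrg, which encodes a histidine-rich protein that binds plasminogen and heparin, was 13.42, 13.53 and 12.999 in WT tumors and 13.38, 12.60 and 13.36 in KO tumors. KO replicate 2 was lowest and WT replicate 3 next, while the other 4 libraries lay close together (log2 fold change -0.20, SE 0.27). Without KO replicate 2 it was 0.057. Serpinf2, the inhibitor of plasmin, ranged over 0.74 and was highest in WT replicate 2 and KO replicate 1. Cpb2, whose product trims fibrin so that it resists plasmin, ranged over 0.67 with the highest value in KO replicate 1.

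KO replicate 3 held the highest value of 16 of the 41 genes, and KO replicate 2 and WT replicate 3 held the lowest value of 13 each. WT replicate 2 and KO replicate 1 were the 2 highest libraries in 8 genes (C8g, Cfi, F2, F11, Kng1, Serpind1, Serpinf2 and Cpb2) and the 2 lowest in 7 (Mbl1, Mbl2, Cfp, C6, C8b, C9 and Pros1). That is 36.6% of the 41 genes, and the same pair were the 2 highest or the 2 lowest in 23.3% of the 22669 tested genes whose symbol occurs once. WT replicate 3 and KO replicate 2 were the 2 lowest libraries in 12 of the 41 genes, of which 10 are coagulation genes. That is 29.3% of the 41, beside 6.57% of those 22669 genes. Both of these pairs join a WT and a KO library. Of pairs within a genotype, KO replicates 1 and 3 were the 2 highest in 7 genes (Cfd, F7, F5, Fga, Fgb, Fgg and Plg), or 17.1% of the 41, beside 5.55% of those 22669 genes. WT replicates 2 and 3 were the 2 lowest in 5 genes, or 12.2%, beside 4.75%. A pair across genotypes, WT replicate 1 and KO replicate 3, was also the 2 highest in 7 genes, or 17.1%, beside 6.45%.

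**Figure D3:**
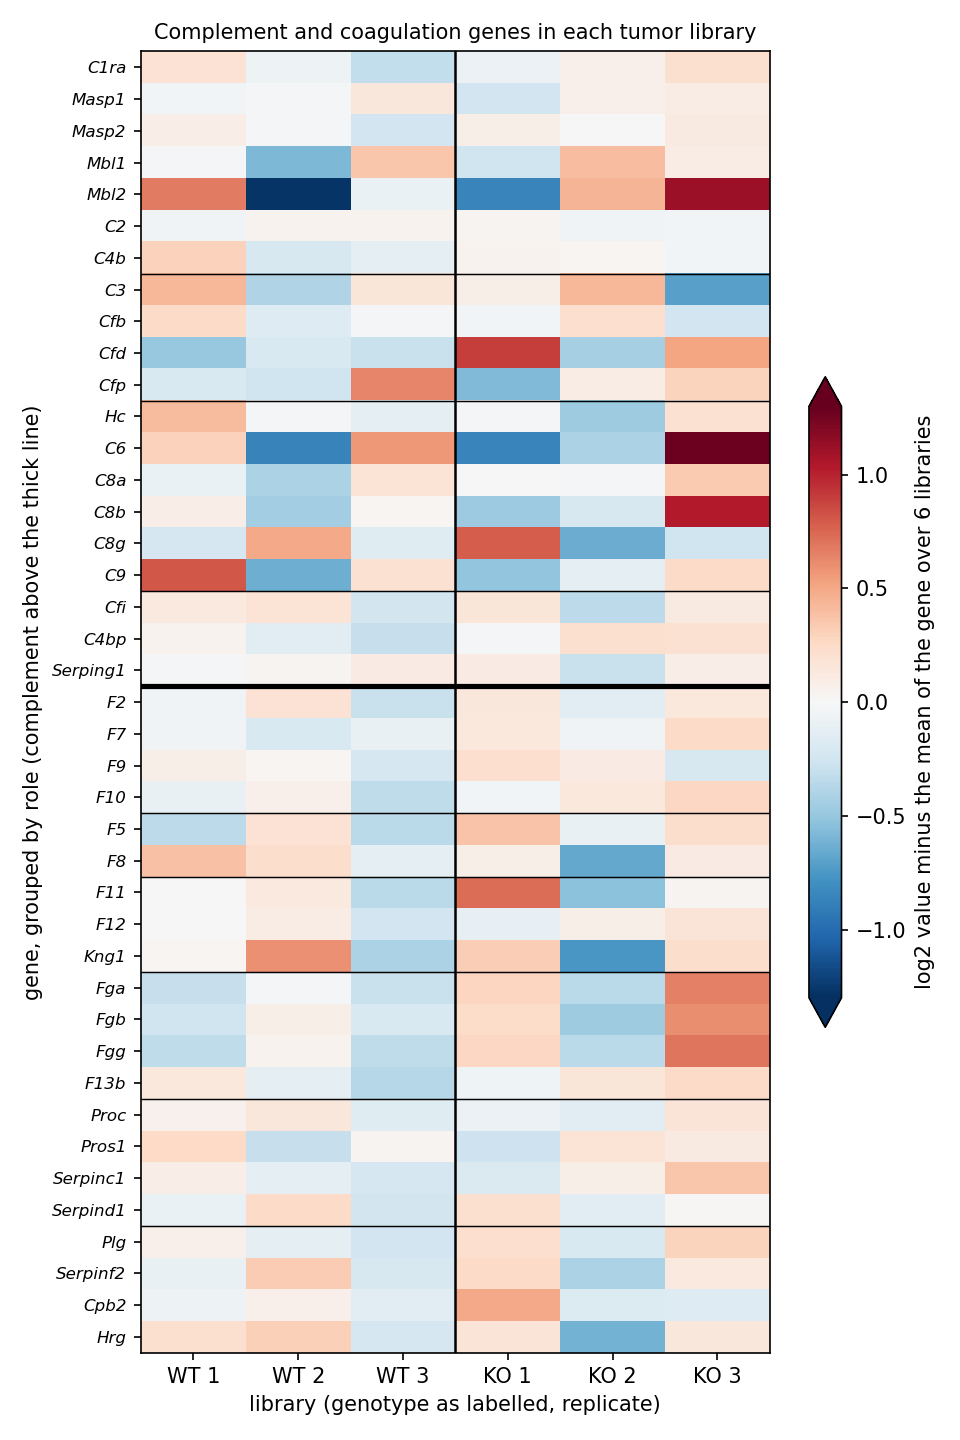
Each cell is the deposited log2 value of a gene in a library minus the mean of that gene over the 6 libraries, with rows grouped by role, complement above the thick line and coagulation below, and WT to the left of the vertical line. Mbl2, C6, C8b and C9 are blue in WT replicate 2 and KO replicate 1 where C8g, F11 and Kng1 are red, and the fibrinogen chains are reddest in KO replicate 3.

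The median of the centred coagulation genes was -0.0072, 0.072 and -0.24 in WT tumors and 0.21, -0.15 and 0.17 in KO tumors, and that of the complement genes 0.085, -0.18 and 0.0034 in WT tumors and -0.025, -0.013 and 0.16 in KO tumors. Coagulation was thus lowest in WT replicate 3 and KO replicate 2 and complement lowest in WT replicate 2, and neither separated the genotypes. The hepatocyte markers, of which 13 of 14 were found, had medians of -0.22, 0.24 and -0.25 in WT tumors and 0.38, -0.38 and 0.098 in KO tumors. They were high, led by Alb at 20.26 to 21.12, so the tissue carried the markers of liver. Their median was highest in KO replicate 1 and WT replicate 2 and lowest in KO replicate 2 and WT replicate 3, as for Kng1 and F11. Mbl2, C6, C8b and C9 were low where these markers were high. The log2 of the markers' summed level was 21.36, 21.84 and 21.11 in WT tumors and 21.98, 21.28 and 21.61 in KO tumors. The part of the hepatocyte share in these levels was not tested. The median range over the 6 libraries was 0.81 for complement and 0.62 for coagulation, and 27 of the 41 genes ranged over less than 2-fold, beside 48.5% of genes tested.

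Other genes of the pathways also gave 0 calls by limma. Of 38 further complement genes, 0 had an adjusted p under 0.05, 0 an unadjusted p under 0.05 and 0 had groups that do not overlap, with a median log2 fold change of 0.054. C7, the pore component made largely outside hepatocytes, ranged over 2.28 with a log2 fold change of -0.88 (SE 0.53). That difference ran from -1.25 to -0.48 with 1 library left out. Of 33 further coagulation genes, 0 passed, 0 had an unadjusted p under 0.05, and 1 did not overlap (beside 8.28% of all genes tested), with a median of -0.068. That gene was Tfpi2, an inhibitor of proteases, which was 9.46, 9.24 and 9.24 in WT tumors and 9.48, 9.88 and 9.62 in KO tumors (log2 fold change 0.34, SE 0.15). C7 and, above, Kng2 were chosen after their values were seen.

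Regulators of these genes were read from the same fit. Of 16 liver transcription factors, 0 passed by limma, 1 had an unadjusted p under 0.05 and 1 did not overlap, in each case Cebpb (beside 4.34% and 8.28% of all genes tested), with a median over the list of -0.12. Cebpb, a factor of the acute phase response, was 9.37, 9.50 and 9.14 in WT tumors and 8.72, 8.58 and 8.16 in KO tumors (log2 fold change -0.84, SE 0.18, adjusted p = 0.938 by limma). All 3 KO values lay below all WT values, which no gene of the 41 showed. Of 20 acute phase genes (Tf was not analysed here), 0 passed and 2 had an unadjusted p under 0.05 (beside 4.34% of all genes tested). These were Saa3 at a log2 fold change of -3.04 and Apcs at 1.16, named after their values were seen, and in both the groups overlapped. With 1 library left out, that of Apcs ran from 0.69 to 1.57. Without the trend, the unadjusted p by limma was 0.061 for Apcs and 0.020 for Saa3. In 1 of the 20 genes the groups did not overlap (beside 8.28% of all genes tested), namely Ttr, a transport protein that falls in the acute phase. Ttr was 16.11, 16.37 and 15.65 in WT tumors and 16.70, 16.38 and 16.78 in KO tumors (median of the list -0.070). Of 14 genes of the signals that drive the acute phase, 0 passed, 0 had an unadjusted p under 0.05 and 1 did not overlap, namely Tnf (beside 8.28% of all genes tested), at 3.16, 3.63 and 4.08 in WT tumors and 2.53, 2.83 and 2.85 in KO tumors (median -0.10).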

How the data were processed

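RNA from 3 WT and 3 Top1mt-KO tumors was measured, with groups taken from the labels. The values are log2 expression levels for each gene symbol as deposited by the authors, normalized between libraries by a transform that is not named. Per the submitters' processing notes, the tools were bcl2fastq 2.17, Trimmomatic 0.36, STAR 2.5.1, Subread and DESeq2 with GRCm38, while the study's methods name BWA and another mouse build, so aligner and build are uncertain. With no counts, depth is unknown and no count model was run. The table has 3 unnamed columns with leftover cells, not used.

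The genotype test used limma 3.58.1 under R 4.3.3 (lmFit, eBayes with trend, Benjamini-Hochberg over 22677 genes left after dropping the 25% with the lowest mean), tested on simulated data. A gene was called at an adjusted p under 0.05. Summaries used Python 3.11.15, pandas 2.3.3 and scipy 1.17.1. Transcript lengths came from GENCODE M21. The replicates are taken as separate mice, otherwise p-values measure only the spread between samples. The members and lists were chosen with earlier results of these data known. Genes named by rule are Top1mt, the 3 largest differences in each direction for complement and for coagulation, the 6 widest ranges, textbook anchors, and from each further list the 2 non-overlapping genes with the smallest p. The other members named fall outside this rule. They are those singled out after their values were seen and those described only by range or by their extreme libraries. The alternatives were no trend, quantile normalization, centring on library medians or hepatocyte markers, no filter, a filter at the median, a replicate block and each library left out. The joint omission of WT replicate 2 and KO replicate 1 was chosen after seeing the data.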

Additional observations from a re-analysis of the deposited data

How the results depend on the processing

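No member passed an adjusted p of 0.05 by limma under any of the 14 alternatives. Over all genes, 0 were called, but 4 with no filter on low values (1700049E15Rik, Gm14130, Gm25081 and Gm26962), 62 with libraries centred on hepatocyte markers (for all genes chosen after seeing the data) and 0 to 1 with a library left out, the 1 being Prom1 without KO replicate 1. Genes at an unadjusted p under 0.05 numbered 985, and 590 with a filter at the median, where fewer genes were tested, and 859 to 1354 with a library left out. Members at an unadjusted p under 0.05 numbered 0 to 1 with a library left out, the 1 being Cfd without KO replicate 2 (beside 4.50% of all genes). Members whose groups do not overlap numbered 0, but 1 (F7) with quantile normalization (beside 8.40% of all genes), 2 (C4bp, F7) with libraries centred on medians (beside 8.70%), 3 (Cfd, F8, Hrg) on hepatocyte markers (beside 3.97%), 7 without WT replicate 2 and KO replicate 1, and, with a library left out, 6 (WT replicate 1), 2 (WT replicate 2), 3 (WT replicate 3), 5 (KO replicate 1), 7 (KO replicate 2) and 1 (KO replicate 3). Smaller groups overlap less often by construction, and 15.9% to 21.5% of all genes did not overlap with a library left out. Other causes were not tested.

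The median log2 fold change of complement members was -0.013, and -0.068 to 0.12 with a library left out, the highest without WT replicate 1. That of coagulation members was 0.10, and 0.027 to 0.21. Centred on hepatocyte markers they were -0.092 and 0.022. Top1mt was -1.13, and -1.76 to -0.75. Of the 41 members, 24 reversed when a library was left out. Of the 30 named with a log2 fold change or all values, 16 did so. Their log2 fold changes ran from -0.38 to 0.19 for C3, from -0.63 to 0.090 for C9, from -0.018 to 0.22 for F2, from -0.30 to 0.17 for Cfp, from -0.065 to 1.0 for Mbl2, from -0.36 to 0.057 for Hrg, from -0.38 to 0.21 for Kng1, from -0.49 to 0.22 for C8g, from -0.23 to 0.52 for C8b, from -0.63 to 0.43 for C6, from -0.081 to 0.39 for Mbl1, from -0.16 to 0.073 for Cfb, from -0.015 to 0.20 for F9, from -0.12 to 0.035 for Proc, from -0.14 to 0.15 for Pros1 and from -0.057 to 0.19 for Serpind1. With quantile normalization Fgb was -0.011 and C6 -0.032. Without WT replicate 2 and KO replicate 1, C3 was -0.43. C6 was -0.077 with libraries centred on hepatocyte markers and -0.0013 without WT replicate 2 and KO replicate 1. With libraries centred on medians Cfb was 0.012 and C2 0.026. Pros1 was -0.0083 with quantile normalization, -0.070 centred on hepatocyte markers and -0.0021 without WT replicate 2 and KO replicate 1, Proc was 0.023 centred on medians and 0.066 without WT replicate 2 and KO replicate 1, and centred on hepatocyte markers F9 was -0.0043 and Serpind1 -0.027. The others of these named members kept their direction. With a filter at the median Cfd was not tested.

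With the replicate number as a block, 0 genes and 0 members were called by limma, and genes at an unadjusted p under 0.05 numbered 912. After each group's mean was taken off, WT and KO libraries of equal number correlated at -0.123, -0.0759 and 0.0520. These values gave no sign of pairing by number, but with 3 libraries per genotype they cannot exclude it.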

Other observations

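Markers of further cell types were read beside the complement and coagulation genes, with 0 calls by limma in each list. An unadjusted p under 0.05 by limma was found in 3 of 6 erythroid, 2 of 9 bile duct and 2 of 10 neutrophil markers. The same held for 2 of 12 macrophage, 1 of 12 stellate cell and fibroblast and 1 of 11 endothelial markers. It was found in 0 markers of the other lists, beside 4.34% of all genes tested. Bile duct markers had a median log2 fold change of -1.19 over 9 genes, with Krt19 (-2.68) and Epcam (-1.19) lower in KO without overlap and 3 of the genes above 0. The log2 of their summed level, led by Spp1, was 12.82, 12.45 and 11.99 in WT tumors and 12.49, 11.84 and 12.68 in KO tumors, which does not separate the genotypes. By contrast, their centred medians were 0.14, 0.087 and 1.22 in WT tumors and -1.17, -0.33 and -0.061 in KO tumors. In these medians all KO libraries lay below all WT libraries. Neutrophil markers had a median of -0.93 over 10 genes and 0 without overlap, and 9 of these were highest in WT replicate 3. Their centred medians were -0.23, 0.20 and 1.26 in WT tumors and -0.79, -0.42 and 0.017 in KO tumors, with WT replicate 1 below KO replicate 3. Macrophage markers had a median of 0.015, with 6 of the markers above 0 and 6 below. Ccr2 (-0.59) was lower in KO without overlap, and Cd163, named after its values were seen, had a log2 fold change of 1.08 with groups that overlap (unadjusted p = 0.0295 by limma). Erythroid markers had a median of -0.78 over 6 genes, with Hba-a2 (-0.90) and Hbb-bs (-0.82) lower without overlap (beside 8.28% of all genes tested), and 6 of the 6 were highest in WT replicate 1. The log2 of the erythroid summed level was 12.82, 11.88 and 12.04 in WT tumors and 11.82, 11.26 and 11.66 in KO tumors. All KO libraries thus lay below all WT libraries in this sum, which was led by Hbb-bs. In the medians of the centred markers the nearest were WT replicate 2 at -0.043 and KO replicate 1 at -0.051. The means of the centred markers did not separate the genotypes. WT replicate 2, at -0.184, lay below KO replicates 1 and 3, at -0.040 and -0.177. Stellate cell and fibroblast markers had a median of -0.42 over 12 genes, of which 10 were highest in WT replicate 1 and 9 lowest in KO replicate 1. Their centred median was 0.93 in WT replicate 1 and next highest, at 0.50, in KO replicate 2, so it does not separate the genotypes. The medians were -0.069 for platelet markers, -0.17 for 7 fat cell markers tested, 0.039 for endothelial markers and 0.0085 for hepatocyte markers. Lymphocyte markers had a median of 0.10, and their non-overlapping genes went in opposite directions, Cd3e lower (-1.03) and Cd3g higher (0.90). Of the pancreas markers, Cela1 and Amy2b were tested, with a median of 0.23, and Prss1 and Pnlip were not analysed here. The median of the hepatocyte markers, which share their cell of origin with most complement and coagulation genes, was the nearest to 0 of these lists with the values as deposited. Which list lies nearest to 0 can change with the centring of the libraries.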
